A study of Mus musculus with 8 samples.

Results

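The 33 genes described here act in DNA replication and in the supply of its nucleotides. They were taken by name: 16 of replication licensing and origin firing, 10 of the replication fork, 5 of nucleotide synthesis, and the cyclins E1 and E2. Of the 33, 32 were measured, among 19778 measured genes in all. Only Ccne2 (cyclin E2) could not be measured, since its probe did not reach well above background on any array.

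The tumours came from female C57BL/6JTgMISIIR-TAg mice, and each of the 8 mice gave 1 ovarian tumour. In this strain the promoter of Amhr2, the gene of the Müllerian inhibiting substance receptor, drives the SV40 T antigen in the reproductive tract. All mice in both groups therefore carry the viral oncogene, and the controls are tumours, not normal ovary. At a tumour size of about 500 mm3, 4 mice were given vehicle (hypromellose with Tween 80) and 4 were given AZD1480, which blocks JAK1 and JAK2, in that vehicle at 30 mg/kg. Tumour tissue was collected 6 h later, and the mice's ages were not given in the sources used here. The comparison asked which transcripts of the replication machinery differed shortly after JAK inhibition.

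Replication origins are licensed before S phase, when the origin recognition complex, Cdc6 and Cdt1 load the ring of MCM proteins onto DNA, and geminin (Gmnn) restrains Cdt1. The kinase Cdc7 with its partner Dbf4, and cyclin E with Cdk2, then help turn the loaded ring into an active helicase with Cdc45 and GINS. Many of these genes are transcribed by E2F factors, which the retinoblastoma protein holds in check, and SV40 large T antigen binds that protein.

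The RNA of each tumour was read on a separate one-colour array. Replicates 1 and 2 of both groups were on slide 1, and replicates 3 and 4 were on slide 2. Slide 1 was the brighter of the 2 slides, with a 75th percentile of processed intensity between 4706 and 5795, against 1587 to 2783 for the arrays of slide 2. The number of arrays limits the precision. All values are log2 processed intensities minus the 75th percentile of the array, so 0 is the level of a probe at that percentile. The probes of all 32 measured members were well above background on all 8 arrays. Of 14 epithelial and ovarian markers, Cdh1 and Muc16 were well above background on 7 arrays and Cldn4 on 6. The others, among them Krt8, Krt18, Pax8, Wt1, Msln and Amhr2, were so on all 8. The tissue was bulk tumour, so fewer cells of a type and less RNA per cell cannot be told apart in any value below.

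The promoters of the members are shown first, since they carry a feature that the choice of the genes did not use. RefSeq promoters (build GRCm38.p6, 250 bases before to 50 after the start) were found for 27 of the 33 genes. They were searched on both strands for the 4 E2F words TTTGGCGC, TTTCCCGC, TTTCGCGC and TTTGCCGC, which can overlap each other. A word was present in 11 of 27 members (40.7%), against 704 of 27025 promoters in the table (2.60%) and 4.03% of the promoters of measured genes. It was present in 7 of 12 licensing and firing genes, in 4 of 9 fork genes, and in 0 of 5 nucleotide genes. The words lay before the start in Cdc6, Mcm5, Mcm6, Mcm7, Orc1, Pola1 and Rfc3, whose stretches with up to 25 bases on either side follow. They are written along the gene's strand with the matches in capitals, and runs of more than 8 capitals are overlapping matches on opposite strands.

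Cdc6 (chr11:98907988-98908045, + strand): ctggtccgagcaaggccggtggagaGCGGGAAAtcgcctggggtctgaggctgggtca
Mcm5 (chr8:75109331-75109392, + strand): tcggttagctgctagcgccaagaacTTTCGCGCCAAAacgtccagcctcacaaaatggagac
Mcm6 (chr1:128359720-128359840, - strand): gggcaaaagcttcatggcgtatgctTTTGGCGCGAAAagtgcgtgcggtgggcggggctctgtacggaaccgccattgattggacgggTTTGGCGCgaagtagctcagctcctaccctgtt
Mcm7 (chr5:138172016-138172073, - strand): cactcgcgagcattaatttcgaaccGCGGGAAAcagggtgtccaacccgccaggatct
Orc1 (chr4:108579402-108579453, + strand): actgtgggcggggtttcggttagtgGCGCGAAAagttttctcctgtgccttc
Pola1 (chrX:93632261-93632318, - strand): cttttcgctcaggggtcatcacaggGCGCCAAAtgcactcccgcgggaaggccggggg
Rfc3 (chr5:151651209-151651243, - strand): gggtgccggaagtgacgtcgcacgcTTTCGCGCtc

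Mcm6 held 3 matches, a pair of them overlapping, and in Mcm3, Lig1, Pold1 and Cdt1 the matches lay only after the start. The words CCAAT and GGGCGG (the GC box) were present in 15 and 20 of the 27 member promoters, 55.6% and 74.1%, against 41.1% and 38.2% of the table and 41.9% and 60.9% of the promoters of measured genes. The word TTTGAA, known as the cell cycle homology region of mitotic promoters, was present in 4 of 27 members (14.8%) and in 20.2% of the table, and in 15.0% of the promoters of measured genes. Among mitosis genes, used below for comparison, it was present in 16 of 21 promoters (76.2%), whereas an E2F word was present in 1 of 21. These are matches of letters in a window, not measured binding.

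None of the 32 replication and nucleotide genes passed the test of a change under AZD1480, and most of their differences were small. By limma with Benjamini-Hochberg adjustment, 0 of 32 passed an adjusted p under 0.05, as did 0 of the 19778 genes (0.00%), and the members' adjusted p ran from 0.974 to 0.995. At an unadjusted p under 0.05 there were 0 of 32 members, against 3.46% of all genes. In 0 of 32 did the 4 AZD1480 values lie wholly above or below the 4 vehicle values, against 2.62% of all genes. The AZD1480 mean was lower for 24 members and higher for 8, where 43.5% of all genes had a lower mean. The median log2 difference was -0.08 over the members and 0.04 over all genes.

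The intervals show how large a change these data leave room for. The 95% interval of the difference lay within -1 to 1, less than a 2-fold change either way, for 31 of 32 members and for 55.9% of all genes. It lay within -0.5 to 0.5 for 9 of 32 members, against 13.5% of all genes. The exception at the wider bound was Cdc7, whose interval reached 1.13. The median size of the difference was 0.10 for members and 0.21 for all genes. The members were also bright, with a median level at the 90.1 percentile of all genes, and varied little within groups, with a median pooled SD of 0.25 against 0.41.

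**Figure D1:**
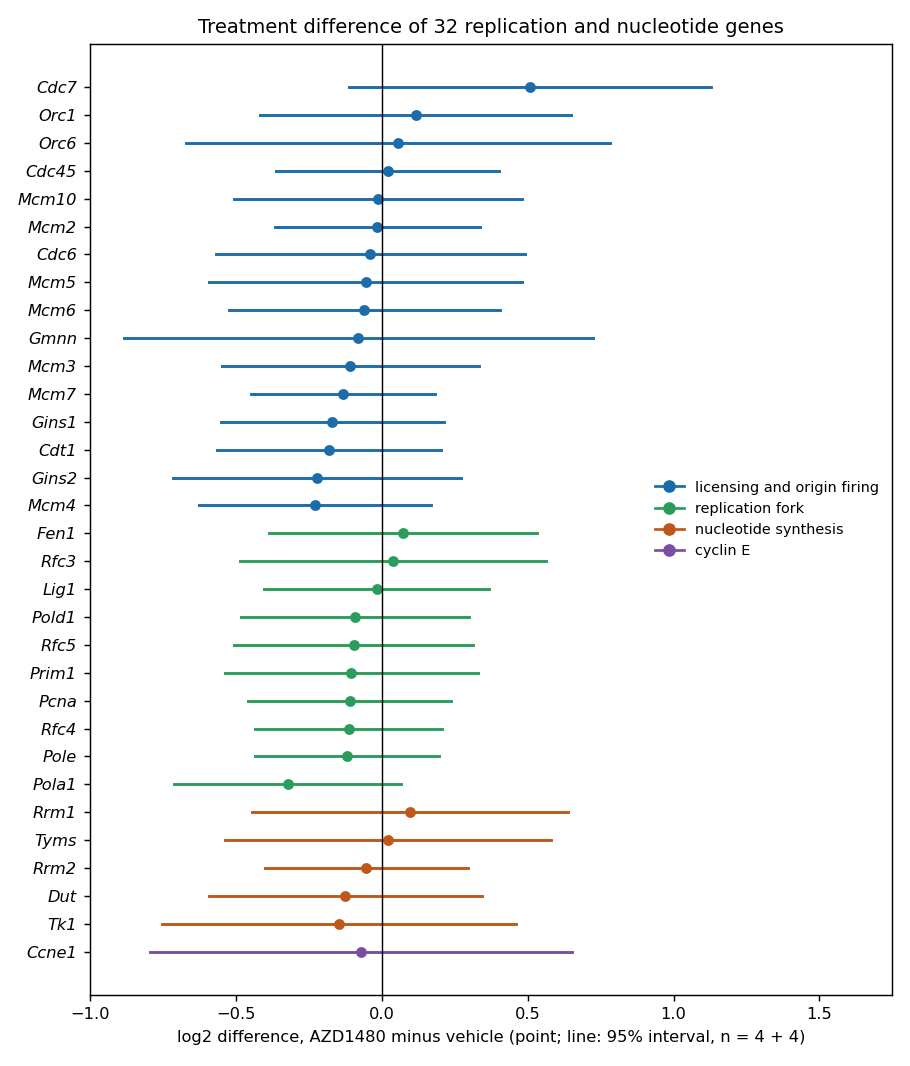
Log2 difference between AZD1480 and vehicle tumours (x axis) for the 32 measured genes, coloured by role and sorted within it; points are differences of means of 4 and 4 tumours and lines are limma's 95% intervals. Every interval spans 0; Cdc7 at 0.51 and Pola1 at -0.32 lie farthest from it.

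Licensing and origin firing genes had a median difference of -0.06, with 12 of 16 lower. The gene farthest from 0 was Cdc7, the kinase that phosphorylates the MCM ring to fire origins. Its probe lies at chr5:107398228-107398287 (mm9, + strand). The vehicle tumours, replicates 1 to 4, measured -4.60, -4.24, -3.77 and -4.19, and the AZD1480 tumours -3.38, -3.96, -4.14 and -3.28. AZD1480 replicates 1 and 4 lay above every vehicle tumour, while replicates 2 and 3 lay inside the vehicle range. The means were -4.20 ± 0.34 and -3.69 ± 0.43 (SD, n = 4 each), a difference of 0.51 (SE 0.27, 95% interval -0.11 to 1.13, 1.42-fold). Its limma p was 0.0954 before adjustment and 0.974 after it. Both Cdc7 probes gave nearly the same profile over the 8 arrays (r = 0.986), with differences of 0.51 and 0.48. Cdc7 was the dimmest measured member, with a level at the 26.25 percentile of all genes. Its difference was 0.36 with the deposited value table. With array weights it was 0.27, and Pola1 at -0.35 lay farther from 0.

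Dbf4, the regulatory subunit that Cdc7 needs and not one of the 33, measured 0.36 higher under AZD1480 (SE 0.18, limma adjusted p = 0.974). Both subunits were higher within slide 1 (0.75 for Cdc7, 0.44 for Dbf4) and within slide 2 (0.26 and 0.27). No other pair of subunits examined here had differences of that size in the same direction, and neither gene passed the test. Cdc7 and Dbf4 did not move together within groups: the correlation of their deviations from the group means was -0.45 over the 8 arrays.

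Mcm4, a subunit of the MCM ring, was the member of this role with the next smallest p. It measured 4.12, 3.83, 4.38 and 4.19 in the vehicle tumours and 4.04, 3.79, 4.04 and 3.74 in the AZD1480 tumours. AZD1480 replicates 2 and 4 were below every vehicle tumour, but the groups overlapped at replicate 2 of the vehicle group. The difference was -0.23 (SE 0.17, 95% interval -0.62 to 0.17, limma adjusted p = 0.974).

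All 6 subunits of the MCM ring, Mcm2 to Mcm7, had a lower mean under AZD1480, with differences from -0.23 (Mcm4) to -0.01 (Mcm2). Of all genes, 43.5% had a lower mean. The direction was shared only within slide 2, where all 6 were lower. Within slide 1, Mcm4 and Mcm7 were lower, and Mcm2, Mcm3, Mcm5 and Mcm6 were higher by 0.04 to 0.21. None passed. In their deviations from the group means, pairs of the 6 subunits had a mean correlation of 0.66. It ran from 0.17 (Mcm5 and Mcm6) to 0.90 (Mcm4 and Mcm6). This was not particular to the MCM ring. The mean was 0.63 for the origin recognition complex, 0.52 for ribonucleotide reductase and 0.505 for GINS. For the other complexes examined it lay between -0.45 and 0.06. Over all pairs of the 32 members the mean correlation was 0.11, and over all genes 0.01. The 8 arrays lie on 2 slides of different brightness, and the correlations are given as a description. Mcm3 was measured by 2 probes that overlap by 43 bases and differ at 1 of them, A14G counted from 1 at the 5′ end of the overlap. The first 30 bases of the overlap are shown to place that base, in capitals.

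Mcm3, probe A_55_P1953087: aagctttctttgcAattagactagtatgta
Mcm3, probe A_51_P324934: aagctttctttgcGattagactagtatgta

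Despite that base, the Mcm3 probes followed each other over the arrays (r = 0.940) and gave differences of -0.11 and -0.18. Mcm10, which helps the helicase start, differed by -0.01.

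GINS, the complex that joins Cdc45 and the MCM ring in the active helicase, had a lower mean in all 4 of its subunits. Gins2 measured 1.57, 2.39, 2.10 and 2.05 in the vehicle tumours and 1.56, 2.04, 1.93 and 1.69 in the AZD1480 tumours. Vehicle replicate 1 sat among the lowest of the 8 tumours, so the groups overlapped. The difference was -0.22 (SE 0.21, limma adjusted p = 0.974). Gins1 differed by -0.17 and, of the subunits outside the 33, Gins3 by -0.35 and Gins4 by -0.09. Cdc45 itself differed by 0.02.

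The MCM loaders gave values near 0. Cdt1, which brings the MCM ring to the origin, measured 3.76, 3.54, 3.71 and 3.92 in the vehicle tumours and 3.37, 3.41, 3.83 and 3.61 in the AZD1480 tumours. AZD1480 replicates 1 and 2 were the lowest, and replicate 3 was above all vehicle tumours except replicate 4. The difference was -0.18 (SE 0.17, limma adjusted p = 0.974). Cdc6, which opens the way for the ring, differed by -0.04, and its other probe by -0.19. Of the origin recognition complex, Orc1 differed by 0.12 and Orc6 by 0.06, and the 4 subunits outside the 33 ranged from -0.10 (Orc3) to 0.21 (Orc2).

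Gmnn, which encodes geminin, the inhibitor of Cdt1, varied most among the tumours of a group. It measured 1.14, 1.21, 0.90 and 0.57 in the vehicle tumours and 1.80, 0.81, 0.74 and 0.15 in the AZD1480 tumours. The highest and the lowest of all 8 tumours were both in the AZD1480 group, replicates 1 and 4, whose SD was 0.69 against 0.29 in the vehicle group. The difference was -0.08 (95% interval -0.88 to 0.72). A further probe, on the opposite strand and named Gmnn only in the newer array files, was dimmer, with means of -2.7 and -2.5. It followed the first probe over the arrays (r = 0.869) but gave 0.16.

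Orc6 had the same shape, although it was chosen for description after its values were seen. It measured 2.69, 2.79, 2.51 and 2.48 in the vehicle tumours and 3.61, 2.54, 2.42 and 2.12 in the AZD1480 tumours. Replicate 1 of the AZD1480 group lay above the rest of the tumours and replicate 4 below them. The correlation of Orc6 and Gmnn in their deviations from group means was 0.963 over the 8 arrays.

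**Figure D2:**
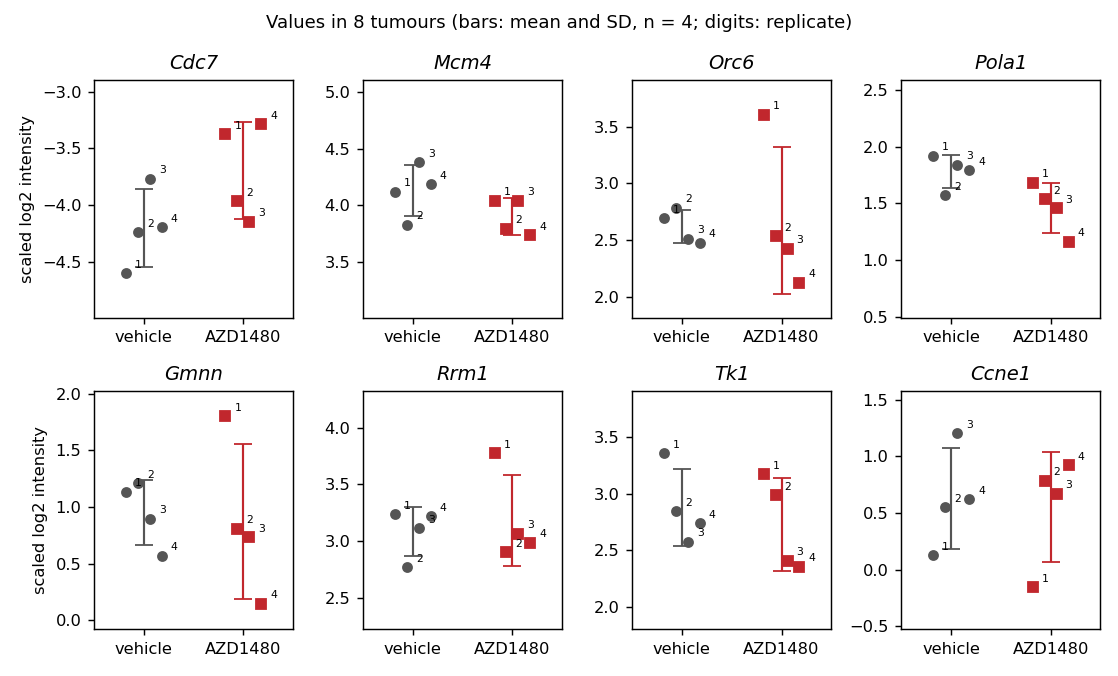
Scaled log2 intensity (y axis, the same height of scale in each panel) of 8 genes in the 4 vehicle (grey circles) and 4 AZD1480 tumours (red squares), with replicate numbers, group means and SDs. The groups overlap in every panel; AZD1480 replicate 1 is the highest tumour for Orc6 (3.61), Gmnn (1.80) and Rrm1 (3.78) and the lowest for Ccne1 (-0.15).

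Replication fork genes had a median difference of -0.10, with 8 of 10 lower, and their median SD percentile among all genes was 12.4, the lowest of the roles with several members. Pola1, the catalytic subunit of DNA polymerase alpha, which begins each new strand, had the smallest p of all members. Its probe lies at chrX:90550189-90550248 (mm9, - strand). The vehicle tumours measured 1.92, 1.58, 1.84 and 1.79, and the AZD1480 tumours 1.68, 1.54, 1.46 and 1.16. AZD1480 replicates 2, 3 and 4 were below every vehicle tumour, and only replicate 1 lay inside the vehicle range, above vehicle replicate 2. The means were 1.78 ± 0.15 and 1.46 ± 0.22 (SD, n = 4 each), and the difference was -0.32 (SE 0.17, 95% interval -0.71 to 0.07). Its limma p was 0.0914 before adjustment and 0.974 after it. Without AZD1480 replicate 1 the difference was -0.40, at a limma p of 0.0455 before adjustment and 0.996 after it. In that setting 4.34% of all genes had an unadjusted p under 0.05. Over the alternative settings the Pola1 difference ran from -0.51 (slide 2 alone) to -0.14 (slide 1 alone).

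The partners of Pola1 in the polymerase alpha-primase complex were closer to 0. Prim1, the catalytic primase subunit, differed by -0.10 (SE 0.19). Pola2 and Prim2, which are not among the 33, differed by -0.12 and 0.01.

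Pole, the catalytic subunit of the leading-strand polymerase epsilon, measured 2.92, 2.61, 2.67 and 2.82 in the vehicle tumours and 2.58, 2.65, 2.69 and 2.63 in the AZD1480 tumours. The difference was -0.12 (SE 0.14), and the AZD1480 SD was 0.04. A further probe, named Pole only in the newer array files, was much dimmer, with means of -2.89 and -2.67. It gave 0.22 and did not follow the first over the arrays (r = -0.190), so the direction depends on the probe. Pold1, the catalytic subunit of polymerase delta, differed by -0.09.

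Pcna, the sliding clamp of the polymerases, measured 4.83, 4.81, 5.05 and 4.89 in the vehicle tumours and 4.95, 4.84, 4.81 and 4.54 in the AZD1480 tumours. AZD1480 replicate 4 was the lowest of all, and the other AZD1480 tumours fell inside the vehicle range. The difference was -0.11 (SE 0.15, 95% interval -0.46 to 0.24). Fen1, which trims Okazaki fragments, and Lig1, which joins them, differed by 0.07 and -0.02. Fen1 had the largest vehicle SD of the fork genes: 2.92, 2.79, 3.39 and 3.26 in the vehicle tumours, and 3.18, 2.88, 3.42 and 3.17 in the AZD1480 tumours. Both vehicle tumours of slide 1 were below both of slide 2, and the AZD1480 tumours did not split by slide.

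Replication factor C loads the clamp. Rfc4 measured 2.90, 3.22, 3.17 and 3.04 in the vehicle tumours and 2.97, 2.99, 3.03 and 2.88 in the AZD1480 tumours, a difference of -0.11 (SE 0.14) that both of its probes gave. Rfc3 measured 0.13, 0.13, -0.02 and -0.23 in the vehicle tumours and 0.60, 0.06, -0.23 and -0.26 in the AZD1480 tumours. Its AZD1480 SD of 0.40 was the largest of the fork genes and came with replicate 1 lying above all other tumours. The Rfc3 difference was 0.04 and that of Rfc5 was -0.10.

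Genes of nucleotide synthesis had a median difference of -0.05, with 3 of 5 lower. Rrm1, the large subunit of ribonucleotide reductase, which makes deoxyribonucleotides, measured 3.24, 2.77, 3.11 and 3.22 in the vehicle tumours and 3.78, 2.90, 3.06 and 2.98 in the AZD1480 tumours. Replicate 1 of the AZD1480 group was the highest, and the other AZD1480 tumours lay inside the vehicle range. The difference was 0.10 (SE 0.23, 95% interval -0.44 to 0.64). Rrm2, the small subunit, measured 3.27, 3.06, 3.22 and 3.18 against 3.24, 3.32, 3.04 and 2.93, a difference of -0.05 (SE 0.15).

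Tk1, Dut and Tyms act in the supply of thymidylate. Tk1, the thymidine kinase of the salvage route, measured 3.36, 2.85, 2.57 and 2.74 in the vehicle tumours and 3.17, 2.99, 2.41 and 2.36 in the AZD1480 tumours. Both groups were higher on slide 1, and the difference was -0.15 (SE 0.26). Dut, which removes dUTP, measured 2.43, 2.56, 2.44 and 2.20 in the vehicle tumours and 2.67, 2.45, 2.11 and 1.91 in the AZD1480 tumours, a difference of -0.12 (SE 0.20).

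Tyms, which makes thymidylate from dUMP, measured -1.88, -1.80, -1.76 and -2.18 in the vehicle tumours and -1.59, -1.51, -2.47 and -1.95 in the AZD1480 tumours. The AZD1480 tumours of slide 1 lay above every vehicle tumour, and replicate 3, on slide 2, lay below them. The difference was 0.02 (SE 0.24). In their deviations from the group means the 5 nucleotide genes had a mean correlation of 0.55 between pairs, against 0.18 for the licensing genes and -0.05 for the fork genes. These deviations keep any difference between the slides. Of the 5 nucleotide genes, 0 had a higher mean on slide 2 than on slide 1, against 9 of 16 licensing genes and 6 of 10 fork genes. The part of the slides in these correlations was not tested.

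Of the cyclins E, which with Cdk2 drive entry into S phase, only Ccne1 could be measured. It measured 0.12, 0.55, 1.21 and 0.62 in the vehicle tumours and -0.15, 0.78, 0.67 and 0.92 in the AZD1480 tumours. The lowest tumour was AZD1480 replicate 1 and the highest vehicle replicate 3. The means were 0.63 ± 0.44 and 0.56 ± 0.48 (SD, n = 4 each), and the difference was -0.07 (SE 0.31, 95% interval -0.79 to 0.65, limma adjusted p = 0.993). Its other probe, dimmer with means of -4.24 and -3.96, followed the same profile (r = 0.828) with a difference of 0.28, so no direction can be given. Ccne2 was not well above background in any tumour of either group, and no fold is given for it.

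Differences within a slide set 2 AZD1480 against 2 vehicle tumours. The median over the members was 0.05 on slide 1 and -0.15 on slide 2. On slide 1, 14 of 32 members were lower, against 44.9% of all genes, and the groups did not overlap for 4 members (12.5%), against 33.7% of all genes. On slide 2, 28 of 32 members (87.5%) were lower, against 47.1% of all genes, and the groups did not overlap for 17 (53.1%), against 33.1%. Of the 32, only Cdc7, Cdc45, Orc1 and Pold1 were higher on slide 2. Whether the treatment difference itself differed between slides was not tested.

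**Figure D3:**
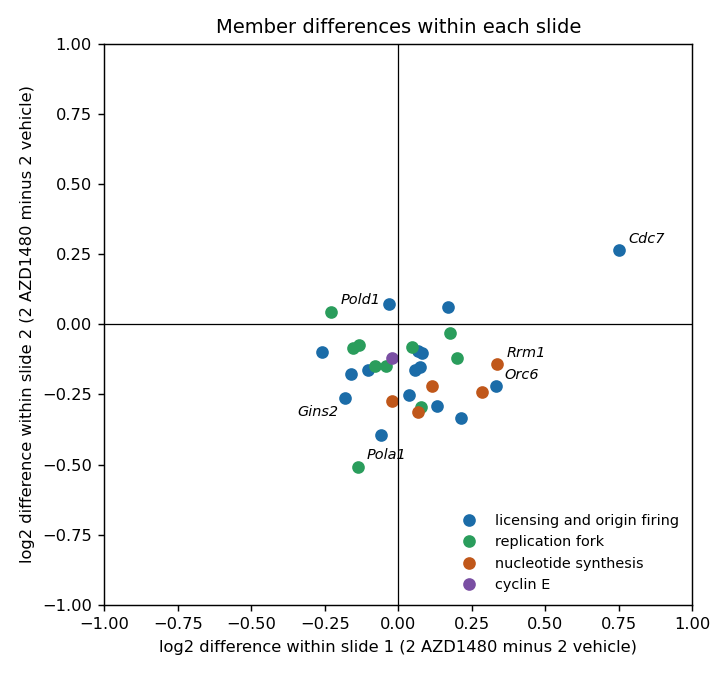
Log2 difference between AZD1480 and vehicle within slide 1 (x axis) and within slide 2 (y axis) for each of the 32 genes, coloured by role; each difference sets 2 tumours against 2. On slide 2, 28 of 32 genes lie below 0; on slide 1, 14 do; Cdc7 is above 0 on both (0.75 and 0.26).

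Single tumours held many of the extreme values, and for AZD1480 replicate 1 this was so over all genes as well as over the members. AZD1480 replicate 1 held the highest value of all 8 tumours for 10 of 32 members and the lowest for 7, and AZD1480 replicate 4 the lowest for 10. Of all 19778 genes, AZD1480 replicate 1 held the highest value for 5633 and the lowest for 4711. AZD1480 replicate 4 held the lowest for 2451 of them. The median over members, relative to the vehicle mean of each gene, was 0.12 in AZD1480 replicate 1, and -0.10, -0.09 and -0.14 in replicates 2 to 4. In the vehicle tumours it was 0.05, -0.13, 0.05 and -0.003. The same median over all genes was 0.11, -0.006, -0.03 and 0.08 in AZD1480 replicates 1 to 4. In replicate 1 the members were thus near the median of all genes. Without AZD1480 replicate 1 the median difference over the members was -0.12.

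AZD1480 replicate 1 also differed in tissue markers. The 9 measured markers of ciliated cells had a median of -5.90 there relative to vehicle, against -0.13 to 0.02 in the other AZD1480 tumours. The 11 markers of fibroblasts and stroma had a median of -1.57 there and -0.34 to 0.55 in the other AZD1480 tumours, and the 14 macrophage markers -1.78 there and -0.40 to 0.22. Other lists were higher there. The 7 measured red cell and muscle markers had a median of 1.73 there and -0.26 to 0.88 in the other AZD1480 tumours. The 5 measured granulosa and luteal markers had 1.55 there and -1.42 to -0.82 in the other AZD1480 tumours, but ran from -1.61 to 1.64 in the vehicle tumours. On the linear scale, the ciliated markers summed to 75.6 to 124.7 in the vehicle tumours and 1.91 to 91.4 in the AZD1480 tumours, and 9 of 9 had a lower mean. The stroma markers summed to 41.1 to 53.7 and 14.2 to 90.1, with 8 of 11 lower, and the macrophage markers to 38.7 to 44.6 and 16.02 to 68.5, with 13 of 14 lower. The part of these cells in the members' values was not tested.

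**Figure D4:**
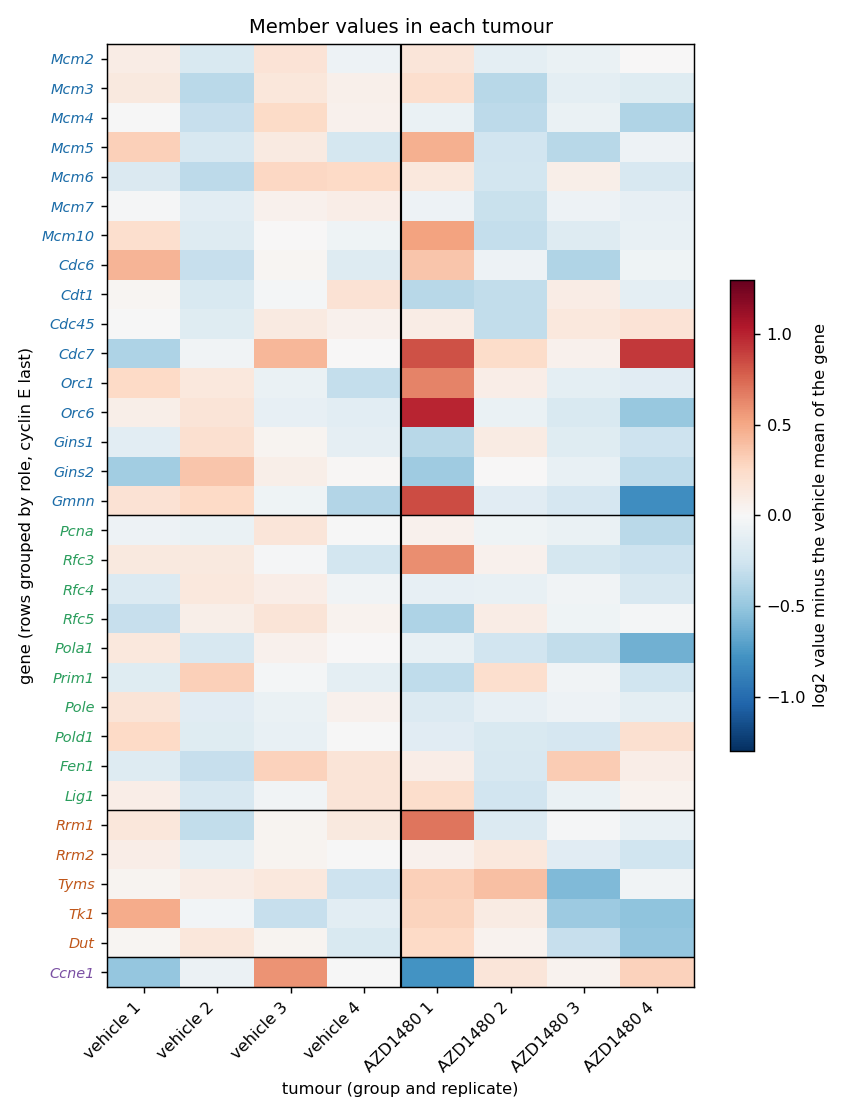
Value of each of the 32 genes (rows, grouped by role) in each tumour (columns), as log2 value minus the vehicle mean of the gene; red is higher and blue lower. AZD1480 replicate 1 holds the highest value of 10 genes, among them Orc6, Gmnn and Rrm1, and AZD1480 replicate 4 holds the lowest value of 10 genes. Of all 19778 measured genes, replicate 1 holds the highest value of 5633 and replicate 4 the lowest of 2451.

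Other genes of the same processes had medians near 0 too. Of 17 further licensing and firing genes, 9 were lower and 8 higher, with a median of -0.02. Of 29 further fork genes, including Rfc1, the RPA subunits and the fork protector Timeless, 18 were lower and 11 higher, with a median of -0.02. Of 28 further nucleotide genes 16 were lower and 12 higher, with a median of -0.08. Their smallest p belonged to Cad, which begins pyrimidine synthesis, at a difference of 0.58 (SE 0.29). Cad was dim, with values from -5.38 to -3.73. In each of the lists 0 genes passed the limma test after adjustment and 0 had an unadjusted p under 0.05. The groups did not overlap for 0 of the 17, 2 of the 29 and 1 of the 28, against 2.62% of all genes. The 2 fork genes were Timeless (-0.16) and Rfc1 (-0.15), both lower.

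Of 15 regulators of S phase, among them the E2F and retinoblastoma family genes, 9 were lower and 6 higher, with a median of -0.07, and 0 had an unadjusted p under 0.05. Chek1, the checkpoint kinase that guards stalled forks, had the smallest p of them, at a difference of 0.37 (SE 0.17). It was dim, with values from -5.64 to -4.96. Cdkn1a, the p21 inhibitor of cyclin-dependent kinases, differed by 0.68 (SE 0.43). The 11 members with an E2F word in the promoter had a median difference of -0.06, and the 16 with a promoter but no word -0.03.

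Genes of mitosis, which follow replication in the cell cycle, gave other values in the same tumours. All 23 that were measured had a higher mean under AZD1480, with a median difference of 0.28, and 8 of them had an unadjusted p under 0.05, against 3.46% of all genes. In 7 the groups did not overlap, against 2.62% of all genes. By limma with Benjamini-Hochberg adjustment, 0 of 23 passed.

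Aurka, the kinase of the spindle poles, measured 2.06, 1.97, 1.79 and 2.09 in the vehicle tumours and 2.57, 2.35, 2.45 and 2.59 in the AZD1480 tumours, which all lay above the vehicle group. Its difference was 0.51 (SE 0.14, limma adjusted p = 0.974). Hmmr, a spindle protein, and Cdc20, an activator of the anaphase-promoting complex, each differed by 0.52. All 23 mitosis genes were also higher with quantile normalization, median scaling, normexp background correction and the deposited value table. Counts of higher genes were 21 of 23 within slide 1 and 22 of 23 within slide 2.

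Summed over a list, on the linear scale relative to the array's 75th percentile, the mitosis genes ran from 119 to 136 in the vehicle tumours and from 150.0 to 165 in the AZD1480 tumours, with no overlap. The licensing and firing genes ran from 126 to 162 and from 122 to 158, and the fork genes from 98.2 to 108 and from 94.3 to 100.3, with overlap in both. Epithelial and ovarian markers summed to 66.5 to 198 in the vehicle tumours and 65.9 to 185 in the AZD1480 tumours, with 13 of 14 lower, and their part in the mitosis values was not tested. The difference between the replication and the mitosis genes was not tested either, and the mitosis list was compiled with earlier results of these tumours known.

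**Figure D5:**
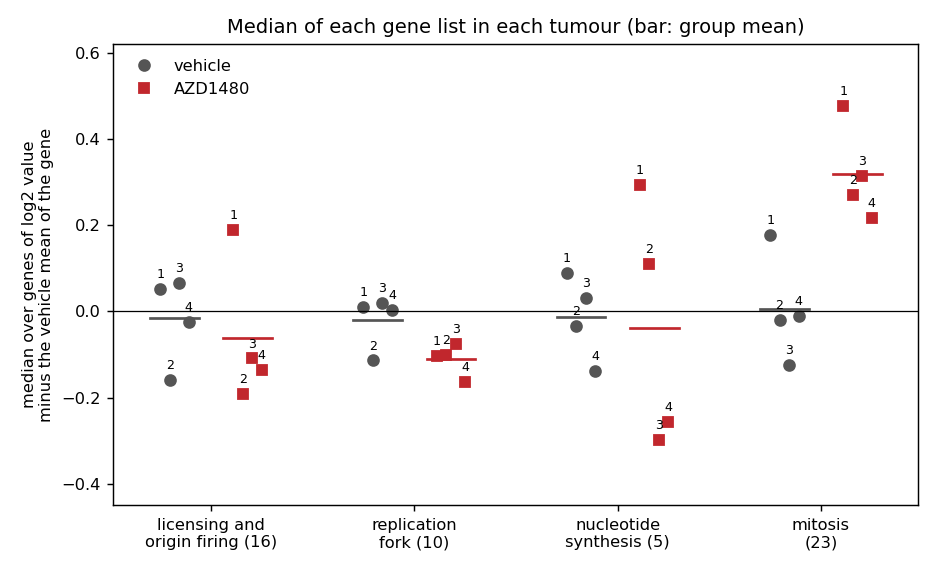
Median over the genes of each list of the log2 value minus the vehicle mean of the gene (y axis), in each vehicle (grey circles) and AZD1480 tumour (red squares), with replicate numbers; short bars are group means. For mitosis genes the AZD1480 tumours lie at 0.22 to 0.48 and the vehicle tumours at -0.12 to 0.18; for licensing and nucleotide genes the AZD1480 tumours spread to both sides of 0.

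Interferon-induced genes gave larger differences in the same tumours. All 23 that were examined had a lower mean under AZD1480, with a median difference of -1.67. Of them 17 had an unadjusted p under 0.05, against 3.46% of all genes, though 0 passed after adjustment. In 16 the groups did not overlap, against 2.62% of all genes. Relative to vehicle, their median was -2.83, -1.34, -0.85 and -1.16 in the 4 AZD1480 tumours, and none of the 8 arrays had a member median farther from 0 than -0.14.

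The genes whose profile over the 8 tumours was most like the median profile of the members were Septin11, Lpcat3, Il10ra, Ide and Gm14048, with Pearson correlations of 0.981 to 0.968 over 8 arrays. Among members, Rrm1 (0.922) and Mcm3 (0.883) were nearest to it, and Prim1 (-0.618) and Rfc5 (-0.611) ran against it. The pair of members that moved most closely within groups was Gins1 and Prim1 (0.981), and the pair most opposed was Gins1 and Lig1 (-0.965). With 8 arrays and many genes, high correlations of either sign are given only as a description.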

How the data were processed

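Cy3-labelled total RNA of 8 tumours was measured on one-colour Agilent arrays, which the authors quantified with Agilent Feature Extraction 9.5.3, per the submitters' processing notes. Per the file headers, the processed intensity of a spot is background-subtracted and not scaled between arrays. The deposited value table, on a log2 scale with a median of 8.36 in each column, served as an alternative only, and the authors' choice of offset in it is unknown here. Here the log2 processed intensity had the 75th percentile of its array subtracted, and flagged spots were left out. Probes well above background on at least 4 of 8 arrays were kept, 39 of the members' 41. For each gene the brightest kept probe was used, and 7 members had several. The further Gmnn and Pole probes bear those names only in the newer array files, and they did not enter the probe averaging. Older gene names in the array files were updated through RefSeq accessions. Probe coordinates are those of the files (mm9), with no exon or UTR assigned, and promoters are from RefSeq (GRCm38.p6).

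The comparison used limma 3.58.1 (R 4.3.3), with lmFit and eBayes, a two-sided test and treatment as the single term, over 19778 genes. A gene passed at a p under 0.05 after Benjamini-Hochberg adjustment. SEs and 95% intervals are limma's moderated ones. The fit was also run on simulated data with independent noise for each gene and no slide effect, unlike the real arrays, and no result here rests on it. Alternatives were other background correction, scaling, probe filters and probe averaging, the slide as a covariate or each slide alone, array weights, a replicate block, and leaving out each tumour. The 4 mice per group are separate animals. Values were given in every tumour for up to 4 members per role with the smallest p, the cyclins E, and the members with the largest SD in a group; Orc6 was added. Up to 3 genes per other list and the 5 genes most like the member profile were named. The members, lists and complexes were chosen with earlier results of these data known.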

Additional observations from a re-analysis of the deposited data

Results flagged for a closer look

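In 64 groups of 4 tumours (32 genes in 2 groups), 3 held a tumour set far apart from the other 3 by Dixon's criterion, and chance flags about 1 in 20 groups. Mcm3 measured 3.51 in vehicle replicate 2, below 3.93 to 4.01 in the other vehicle tumours. Cdc45, a helicase component, measured -2.35 in AZD1480 replicate 2, below -1.93 to -1.85 in the other AZD1480 tumours. Pold1, of polymerase delta, measured 3.69 in AZD1480 replicate 4, above 3.27 to 3.33 in the other AZD1480 tumours.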

How the results depend on the processing

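No gene passed the adjusted threshold in any of the 20 alternative settings run. The median difference over the members stayed below 0 except within slide 1 alone, where it was 0.051 and 14 members were lower. Members at an unadjusted p under 0.05 numbered 1 with the deposited value table and 1 with array weights (Pola1 in both), where 3.89% and 5.42% of all genes did. Leaving out 1 tumour at a time gave 0 to 1 of them: Pola1 without AZD1480 replicate 1, and Cdc7 without AZD1480 replicate 3, where 4.34% and 8.196% of all genes did. Members whose groups did not overlap numbered 1 with quantile normalization, 1 with the deposited value table, 4 within slide 1 and 17 within slide 2, and 0 to 3 without 1 tumour. The cause of these moves was not tested, other than fewer tumours overlapping less. Same-numbered tumours of the 2 groups share a number and a slide. Their deviations from the group means correlated at 0.36, 0.36, 0.13 and -0.06 over all genes. The same-numbered AZD1480 tumour was the closest match of vehicle replicates 1, 2 and 3, but not of replicate 4. With the replicate number as a block, 0 genes passed and the median over the members was -0.08. With 4 tumours per group, SEs of 0.14 to 0.35 limit what could be called.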
